A study of Mus musculus with 12 samples.

Results

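Potassium channel genes were followed in RNA sequencing of mouse cartilage progenitor pellets during a serial differentiation from cartilage to bone conditions. The set held every listed gene whose symbol begins with Kcn, followed by letters and a number, and it contained 98 of the 28244 genes listed, 93 of them genes of channel or accessory subunits and 5 noncoding genes. The cells came from heads and condyles of femurs and tibiae of C57/BL6 pups aged 5 or 6 days, and they were grown as pellets in chondrogenic medium for 7 days and then in osteogenic medium. Libraries of polyadenylated RNA were made at day 7 (D7), D8, D10 and D28, after 0, 1, 3 and 21 days in osteogenic medium, with 3 libraries at each time point and 12 in all. All groups share the strain, the tissue source and the week of chondrogenic medium, none of the libraries comes from pellets kept longer in chondrogenic medium, and so the change of medium and the time in culture cannot be told apart. The labels do not say whether the replicates come from separate cell preparations, so p-values measure only the spread between these libraries. The cartilage genes Sox9, Acan and Col2a1 were abundant in every library, with the lowest mean, 12.11 ± 0.18 (SD, n = 3), for Sox9 at D8. Of the whole list of 9 chondrocyte markers, 6 were lower and 0 higher at D10 than at D7 by the thresholds given below.

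Values are log2 of an equalized read count with 1 added, and the equalization brought the libraries to nearly the same total, so the original depth is not kept. On this scale 1 read of a gene was worth 0.50 to 1.81 in the different libraries, and 3 reads were worth 1.50 to 2.87. The highest of these, 2.87, served as a single floor for all libraries and is called the 3-read level, although in other libraries it stands for more than 3 reads. A level under it rests on few reads, so that counting error adds to the spread between libraries. The low end moved with the time point, since 3 reads were worth 2.44 to 2.87 and 11762 to 12383 genes were at 0 in the D10 libraries, against 1.50 to 1.54 and 11068 to 11534 in the D28 libraries. Genes near the floor at D10 were thus read at the lowest sensitivity, and the part of this in their values was not tested. A gene was compared between time points when it had values of 1 or more in 3 or more of the libraries, and it is said to rise or fall when it passed both thresholds of the limma fit, a log2 fold change of 1 or more in size and an adjusted p under 0.05. Kcna2 and Kcna5 drew attention to these genes by their low values at D10, so their levels are a description without a test, and counts of changes refer to the other 96 genes.

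Potassium channels let potassium leave or enter the cell along its gradient and thereby set the membrane potential. They fall into voltage-gated channels (Kv), inward rectifiers, tandem pore leak channels, and channels opened by intracellular calcium or sodium, and many of them assemble with modulatory or accessory subunits that change gating and trafficking. In chondrocytes, voltage-gated, calcium-activated, ATP-sensitive and leak potassium currents have been recorded, and they take part in the resting potential, in volume regulation and in the response to load.

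Promoter sequences are shown for the pair of Shaker genes with the low D10 values, Kcna2 and Kcna5, and for Kcns1, the tested gene with the largest fall at D10 among those that stayed above the 3-read level. Each window holds the 250 bases before the RefSeq start site on the gene's own strand (GRCm38.p6), with every CG dinucleotide in capitals. The windows lie at chr3:107101317-107101566 (plus strand), chr6:126535556-126535805 (minus strand) and chr2:164171114-164171363 (minus strand), and the GENCODE gene model of Kcna2 begins upstream of the RefSeq start used here.
Kcna2: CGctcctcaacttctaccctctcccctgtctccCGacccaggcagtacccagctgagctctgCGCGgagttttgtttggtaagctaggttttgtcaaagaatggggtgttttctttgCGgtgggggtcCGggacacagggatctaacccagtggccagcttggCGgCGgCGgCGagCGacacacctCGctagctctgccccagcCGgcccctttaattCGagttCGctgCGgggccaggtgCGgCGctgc
Kcna5: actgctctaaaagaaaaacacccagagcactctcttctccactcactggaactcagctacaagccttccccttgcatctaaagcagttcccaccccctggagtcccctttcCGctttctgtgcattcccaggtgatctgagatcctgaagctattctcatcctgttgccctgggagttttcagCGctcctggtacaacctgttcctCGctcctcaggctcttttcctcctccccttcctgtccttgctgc
Kcns1: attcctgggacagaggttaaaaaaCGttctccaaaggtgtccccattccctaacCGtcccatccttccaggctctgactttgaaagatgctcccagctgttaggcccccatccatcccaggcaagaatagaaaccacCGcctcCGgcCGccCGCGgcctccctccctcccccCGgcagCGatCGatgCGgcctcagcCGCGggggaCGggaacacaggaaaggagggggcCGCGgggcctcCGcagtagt
The Kcna2 window held 18 CG dinucleotides and 62.4% G and C, and the Kcns1 window held 17 and 63.2%. The Kcna5 window held 3 and 53.2%, so the pair that was low at D10 differed in this respect. The median of 32536 promoter windows was 6 CG dinucleotides and 52.4% G and C, and 21.8%, 23.7% and 71.2% of them held at least as many as Kcna2, Kcns1 and Kcna5. A window was found for 71 of the 98 genes, and 68 of their first windows held a CG (95.8%, against 92.2% of all windows). The letters GGGCGG, searched on both strands and itself containing a CG, stood in 35 of the first windows (49.3%, against 33.0%) and in that of Kcns1. The letters TATAAA, searched likewise, stood in 2 (2.82%, against 12.3%) and in none of the 3 windows printed.

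Of the 98 genes, 71 passed the filter on low values and 27 did not. The 27 comprised 6 genes at 0 in every library and 21 that were above 0 somewhere. The 6 were Kcnh8, Kcnj16, Kcnk16, Kcnmb2, Kcnmb4os1 and Kcns2. Just inside the filter were Kcnh4, Kcnip1 and Kcnk15, whose third-highest value was 1.06, and just outside were Kcnab3os and Kcnn2, whose third-highest value was 0.87. Of the genes that passed, 54 had values of 1 or more at all 4 time points, and 1, Kcnj3, had them at D28 alone. By class, 25 of 30 voltage-gated genes passed, 6 of 10 modulatory Kv genes, 10 of 12 accessory genes, 10 of 15 inward rectifiers and 11 of 14 tandem pore genes. So did 7 of 8 genes in the group of calcium- or sodium-activated channels, in which Kcnu1 was also placed. The counts were 1 of 4 for beta subunits of the large-conductance channel and 1 of 5 for noncoding genes. The heat map of levels shows a small group of abundant genes in nearly every class above many genes close to the limit of detection.

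**Figure D1:**
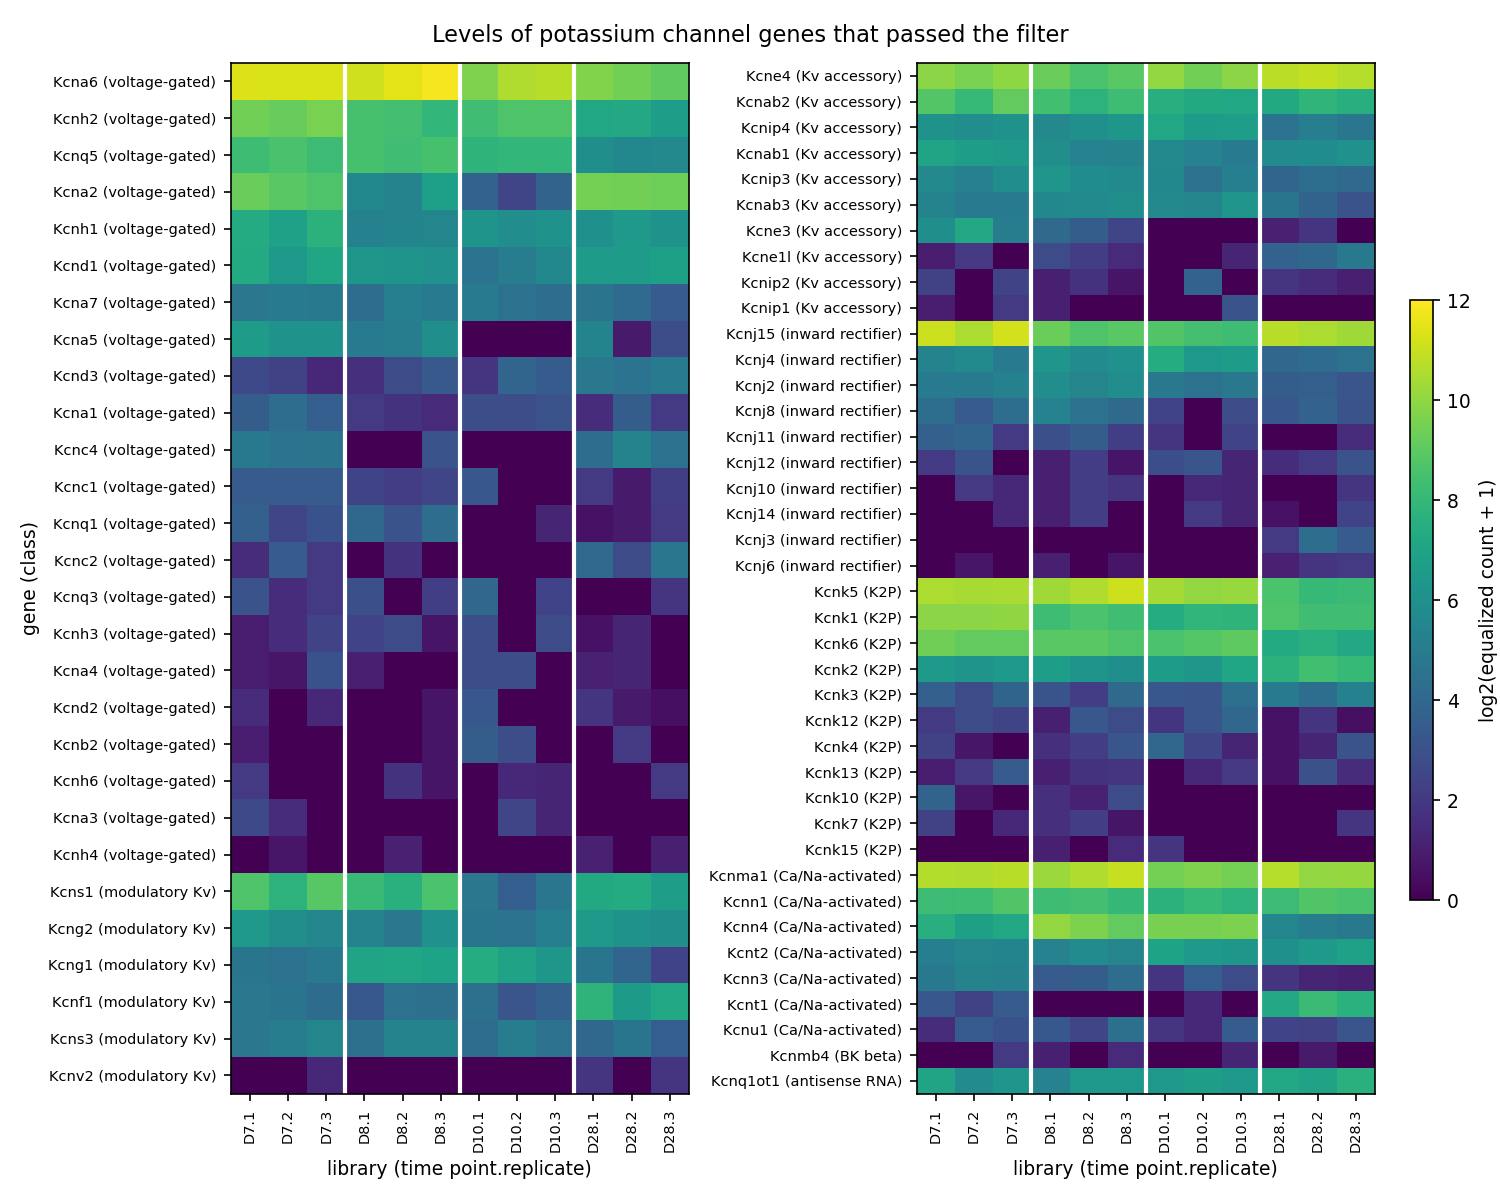
Log2(equalized count + 1) of 68 of the 71 potassium channel genes that passed the filter (rows, grouped by class and ordered by mean; K2P stands for tandem pore) in the 12 libraries (columns, time point and replicate, white lines between time points). Kcna6, Kcnma1, Kcnk5, Kcne4 and Kcnj15 were bright at every time point, and Kcna2 and Kcna5 were darkest at D10.

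A total of 9 genes had a mean of 8 or more over all libraries, namely Kcna6, Kcne4, Kcnh2, Kcnj15, Kcnk1, Kcnk5, Kcnk6, Kcnma1 and Kcnn1. For the ranking that follows, levels were divided by exon length. Other levels in the text are undivided unless per length or per kilobase is named. On this scale, as the median equalized count per kilobase of exon over the libraries, Kcnk5 stood at 377, Kcne4 at 359 and Kcna6 at 325. Kcnj15, Kcnk1 and Kcnk6 followed with 150, 144 and 114, and Kcnma1, whose transcript models are long, stood at 79.5. The order depended on the time point. At D7, Kcnk1, Kcna6 and Kcnk5 were close together at medians of 438, 432 and 421 per kilobase, and at D8 Kcna6 (488) and Kcnk5 (448) were highest. Kcne4 (358) and Kcnk5 (337) were highest at D10, and at D28 Kcne4 stood at 658, Kcnj15 at 232 and Kcnk5 at 86.2. An annotated gene on the opposite strand, Gm26673, covers 39.6% of the exon length of Kcna6. The library kit keeps strand, but the strand setting of the read counting is not given, so reads of this neighbour cannot be separated from those of Kcna6 here.

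Time points were compared to ask when potassium channel genes changed after the switch of medium. At D8, 2 of the 96 genes rose against D7 (2.08%, while 2.02% of all genes listed rose) and 10 fell (10.4%, against 2.38%). At D10, 4 rose against D7 (4.17%, against 5.32%) and 19 fell (19.8%, against 6.51%). At D28, 7 rose against D7 (7.29%, against 5.4%) and 21 fell (21.9%, against 5.42%). The 7 rises at D28 include Kcnj3, which passed the filter through D28 alone, so that the filter fixed the direction of its change there and from D10 to D28. Falls outnumbered rises in each of the 3 comparisons with D7, in which the D7 libraries are shared.

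Between D8 and D10, 1 gene rose (1.04%, against 2.55%) and 8 fell (8.33%, against 3.49%). Between D10 and D28, 14 rose (14.6%, against 8.61%) and 12 fell (12.5%, against 8.58%). The rises include Kcnj3 and Kcnj6, which met the filter through their D28 libraries, so that the filter favoured these rises. Scaling by median of ratios moved the log2 fold changes between D10 and D28 up by a median of 0.13 over all genes tested. With this scaling 17 rose and 12 fell. Among the 69 of these genes that passed the filter, which leaves out the least abundant ones, the median log2 fold change against D7 was -0.09 at D8, -0.39 at D10 and -0.64 at D28, while that of all 17674 tested genes was 0.03, 0.05 and -0.03. Over all genes tested, the shares that rose and fell were 3.23% and 3.81% at D8, 8.5% and 10.4% at D10, and 8.63% and 8.66% at D28, 4.08% and 5.58% from D8 to D10, and 13.8% and 13.7% from D10 to D28. In all, 40 genes changed in at least 1 comparison. Of these, 32 reached a mean of 4 or more at some time point, and 24 of the 25 with the largest changes are described below.

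**Figure D2:**
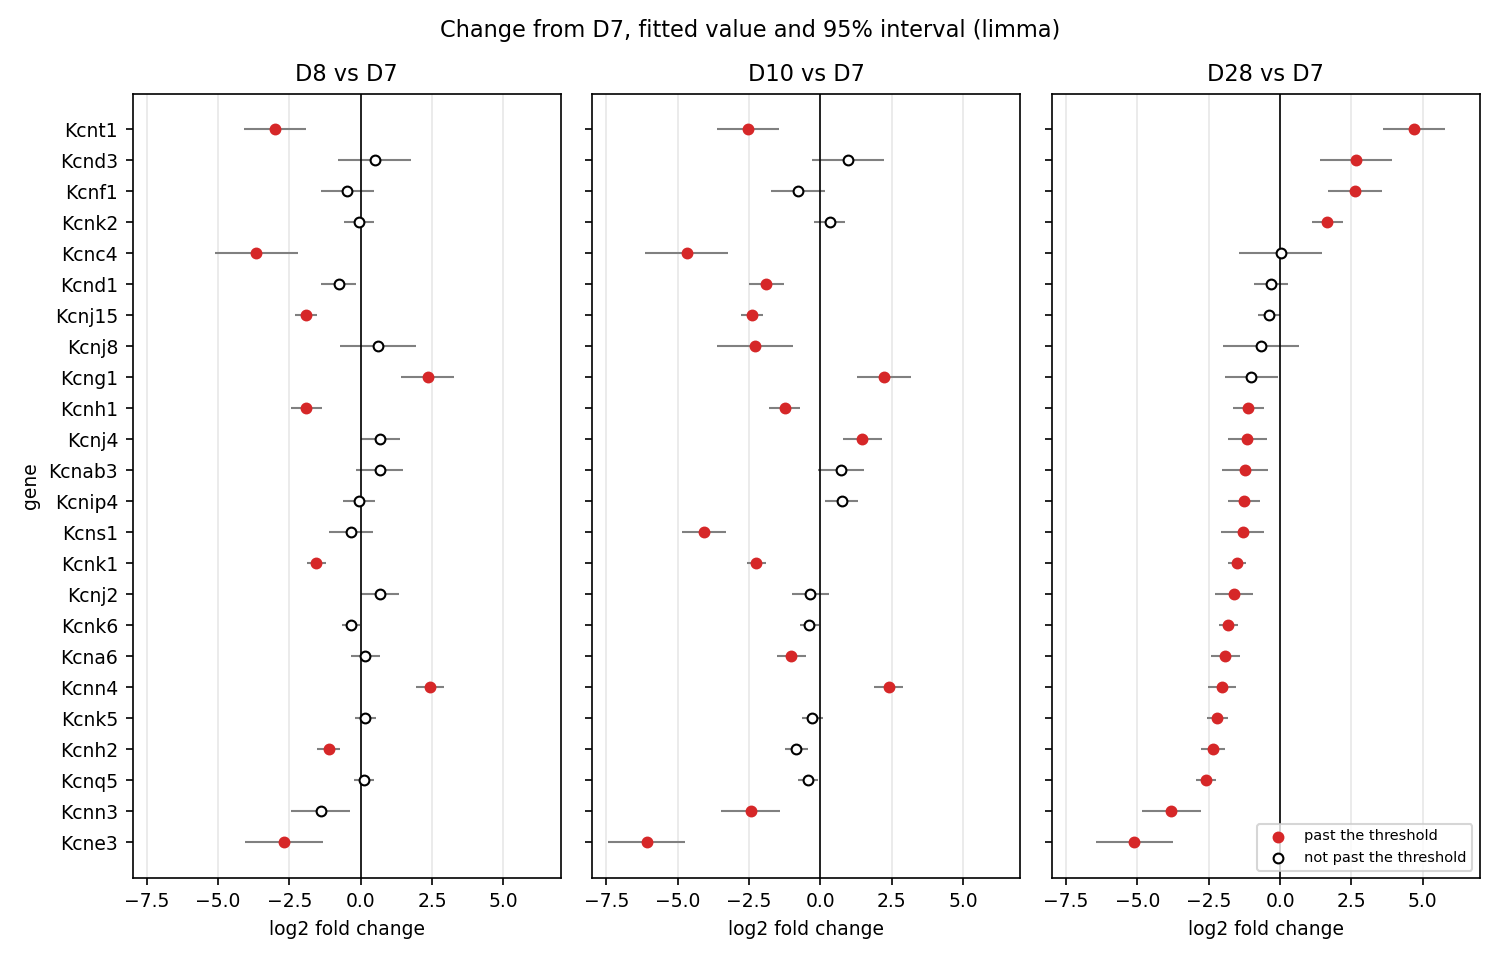
Fitted log2 fold change from D7 (points) with its 95% interval (lines) for the 24 described genes at D8, D10 and D28, with red points for genes past both thresholds and open points for the others. Kcnt1, Kcnd3, Kcnf1 and Kcnk2 stood to the right of 0 at D28, and Kcnn4 and Kcng1 stood to the right at D8 and D10 but not at D28.

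The genes that rose early were led by Kcnn4, which encodes the intermediate-conductance calcium-activated channel, known for volume control in red cells and lymphocytes. Kcnn4 (chr7:24370263-24386690) measured 7.51, 6.84 and 7.22 at D7, 10.08, 9.63 and 9.13 at D8, 9.55, 9.52 and 9.65 at D10, and 5.51, 5.08 and 4.87 at D28. The D8 and D10 libraries were all above the D7 libraries, and the D28 libraries were all below them. The gene rose at D8 (log2 fold change 2.42, SE 0.23, adjusted p = 7.0e-06, limma), was again higher than D7 at D10 (log2 fold change 2.39, SE 0.23, adjusted p = 1.1e-06) and fell at D28 to below its start (log2 fold change -2.03, SE 0.23, adjusted p = 6.3e-06). Between D10 and D28 its log2 fold change was -4.42 (adjusted p = 6.9e-10, limma).

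Kcng1, a modulatory Kv subunit that forms no channel alone and assembles with other Kv subunits, also rose at D8. Kcng1 (chr2:168260117-168281736) measured 4.69, 4.49 and 4.86 at D7, 7.01, 7.09 and 6.96 at D8, 7.43, 6.91 and 6.37 at D10, and 4.67, 3.92 and 2.44 at D28. The D8 and D10 libraries lay above all D7 libraries, while the D28 libraries overlapped with those of D7. The rise passed at D8 (log2 fold change 2.34, SE 0.44, adjusted p = 0.0015, limma) and at D10 (log2 fold change 2.22, SE 0.44, adjusted p = 8.4e-04), and from D10 to D28 the gene fell (log2 fold change -3.22, SE 0.44, adjusted p = 1.8e-05).

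Kcnj4, a strong inward rectifier, measured 5.35, 5.72 and 4.98 at D7, 6.26, 5.78 and 6.05 at D8, 7.43, 6.41 and 6.60 at D10, and 3.95, 4.19 and 4.49 at D28. Its D10 libraries were above and its D28 libraries below all D7 libraries. It rose at D10 (log2 fold change 1.46, SE 0.32, adjusted p = 0.0018, limma) and fell from D10 to D28 (log2 fold change -2.60, SE 0.32, adjusted p = 5.8e-06). The fall from D7 to D28 (log2 fold change -1.14, SE 0.32, adjusted p = 0.011) was -0.96 without D7 replicate 2 and then missed the fold threshold.

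Kcnt2, which encodes the sodium-activated Slick channel, was the 1 gene that rose from D8 to D10. It measured 5.19, 5.52 and 5.43 at D7, 5.34, 5.78 and 5.47 at D8, 6.98, 6.49 and 6.35 at D10, and 6.05, 6.47 and 6.88 at D28. The D10 and D28 libraries were above those of D7 and D8. The log2 fold change was 1.23 at D10 and 1.09 at D28 against D7, and 1.08 between D8 and D10 (adjusted p = 0.0021, 0.0055 and 0.0085, limma). The change at D28 was 0.99 without D7 replicate 1 and 0.88 without D28 replicate 3, and that from D8 to D10 was 0.98 without D8 replicate 1 and 0.89 without D10 replicate 1, each short of the fold threshold.

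Kcnt1, the gene of the related Slack channel, had the largest change of the tested potassium channel genes once low values were raised to the 3-read level. Kcnt1 (chr2:25863734-25918273) measured 3.26, 2.30 and 3.45 at D7, 0 in each of the 3 D8 libraries, 0, 1.37 and 0 at D10, and 7.23, 8.20 and 7.65 at D28. All D28 libraries were above all others, and the D8 and D10 libraries held 3 reads or fewer. From D7 to D28 Kcnt1 rose from 3.00 ± 0.62 to 7.69 ± 0.48 (SD, n = 3; log2 fold change 4.69, SE 0.51, adjusted p = 3.5e-06, limma). Against D10 the difference was 4.82 on the log2 scale once values under the 3-read level were raised to that level. The lower values at D8 and D10 against D7 passed the thresholds as deposited, but with low values raised in this way the difference was -0.32 at both time points and did not pass.

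Kcnf1, another modulatory Kv subunit, was a late riser. Kcnf1 (chr12:17172100-17176888) measured 4.80, 4.61 and 4.22 at D7, 3.29, 4.51 and 4.43 at D8, 4.45, 3.17 and 3.68 at D10, and 7.81, 6.53 and 7.15 at D28. Only the D28 libraries stood apart, all above the other 9. Kcnf1 rose at D28 against D7 (log2 fold change 2.62, SE 0.44, adjusted p = 2.3e-04, limma) and against D10 (log2 fold change 3.40, SE 0.44, adjusted p = 1.0e-05), with no call at D8 or D10.

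Kcnk2 and Kcnd3 rose late as well. Kcnk2 encodes the mechanically and lipid-gated leak channel TREK, and it measured 6.47, 6.19 and 6.47 at D7, 6.71, 6.22 and 5.99 at D8, 6.62, 6.37 and 7.10 at D10, and 7.72, 8.36 and 8.03 at D28. Its D28 libraries were all above the others, and it rose at D28 against D7 (log2 fold change 1.66, SE 0.25, adjusted p = 8.6e-05, limma) and against D10 (log2 fold change 1.34, SE 0.25, adjusted p = 3.3e-04). Kcnd3, a Shal subunit of the A-type current, averaged 2.11 ± 0.67 in the D7 libraries and 4.78 ± 0.19 in the D28 libraries (SD, n = 3), and it rose (log2 fold change 2.67, SE 0.60, adjusted p = 0.0024, limma; 1.90 with low values raised to the 3-read level). Its rise from D10 (1.70) did not pass without D10 replicate 1 (1.07, adjusted p = 0.13, limma), without D28 replicate 1 (1.70) or without D28 replicate 3 (1.62). The other rises at D28 against D7 were Kcne1l and Kcnj3. Kcne1l, a single-pass accessory subunit, had a log2 fold change of 3.26 (adjusted p = 6.7e-04, limma), or 1.35 with low values raised to the 3-read level. Kcnj3, a G protein-gated inward rectifier, was at 0 in all 9 earlier libraries. Its log2 fold change was 3.25, and with low values raised it was 0.66 and did not pass. A gene on the opposite strand overlaps 31.1% of the exon length of Kcnj3 and another 12.2% of that of Kcnk2.

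**Figure D3:**
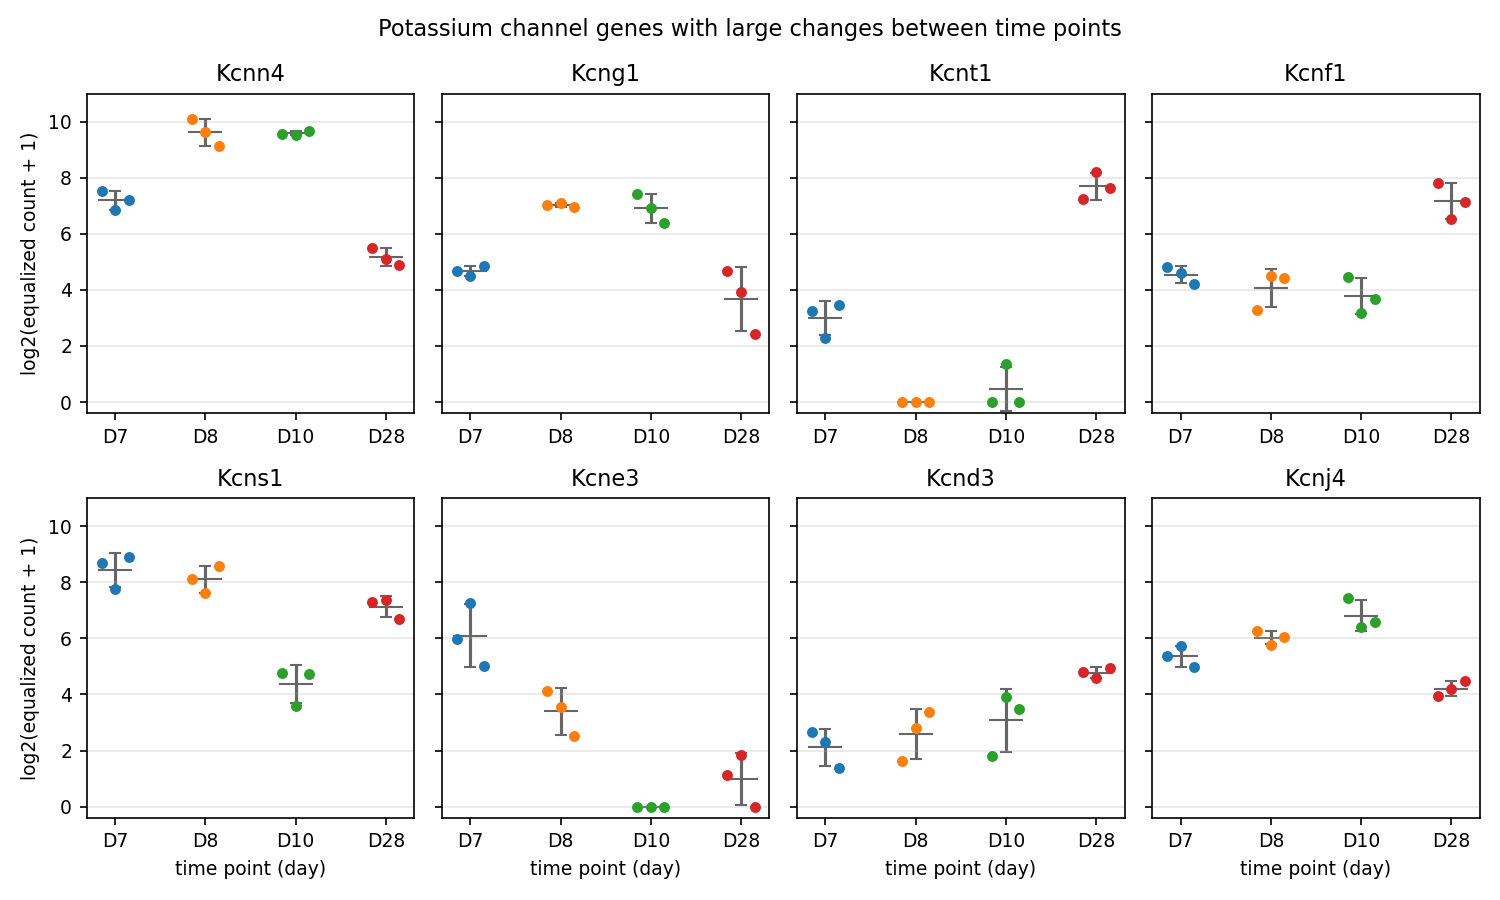
Log2(equalized count + 1) of 8 potassium channel genes with large changes, with 1 point per library and the mean ± SD of 3 libraries as bars, over time points drawn at equal spacing. Kcnn4 and Kcng1 were higher at D8 and D10, Kcnt1 and Kcnf1 were higher at D28, and Kcns1 and Kcne3 were lowest at D10.

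Most Shaker genes of the Kv family lie in a pair of clusters in the mouse genome. On chromosome 3 they are Kcna3, Kcna2 and Kcna10, with gaps of 63.1 and 68.1 kb, and on chromosome 6 they are Kcna6, Kcna1 and Kcna5, with gaps of 61.9 and 105 kb (GENCODE M21, GRCm38). Kcna2, known as a delayed rectifier of axons, lies at chr3:107101146-107115005 and measured 9.25, 8.94 and 8.69 at D7, 5.60, 5.38 and 6.79 at D8, 3.76, 2.50 and 3.82 at D10, and 9.50, 9.44 and 9.37 at D28. Every D8 library was below every D7 library, every D10 library was below every D8 library, and the D28 libraries were above those of D7. The difference from D7 was -3.03 at D8, -5.60 at D10 and 0.48 at D28 on the log2 scale, and D28 exceeded D10 by 6.07.

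Kcna5, known for the ultrarapid current of atrial muscle and also found in vascular smooth muscle, lies at chr6:126532551-126535412 and measured 6.61, 6.17 and 6.13 at D7, 4.89, 5.05 and 5.99 at D8, 0 in each of the 3 D10 libraries, and 5.43, 0.87 and 2.82 at D28. The D8 libraries were all below those of D7, and the D28 libraries were scattered over nearly the whole range. Against the floor of 3 reads, the D10 level was at least 10.8-fold lower than D7 and at least 5.41-fold lower than D8. The difference between D28 and D7 was -3.26, with a D28 SD of 2.29 (n = 3). By D28 the Kcna2 libraries stood above their D7 range, whereas Kcna5 reached at most 5.43 there.

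Their cluster neighbours were measured at quite different levels. Kcna6, the most abundant Kv gene per length, measured 11.35, 11.31 and 11.33 at D7, 11.12, 11.50 and 11.84 at D8, 9.67, 10.58 and 10.69 at D10, and 9.73, 9.46 and 9.06 at D28. D7 and D8 overlapped, and the D10 and D28 libraries lay below all of them. Kcna6 fell from D7 to D28 (log2 fold change -1.91, SE 0.24, adjusted p = 1.2e-05, limma). The fall from D7 to D10 (log2 fold change -1.02, SE 0.24, adjusted p = 0.0027) was -0.69 without D10 replicate 1, and that from D8 to D10 (-1.17) was -0.85 without that library and -0.996 without D8 replicate 3, each short of the fold threshold.

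Kcna1, which underlies episodic ataxia when mutated, measured 3.55, 4.30 and 3.56 at D7, 2.03, 1.77 and 1.46 at D8, 2.87, 2.84 and 3.07 at D10, and 1.50, 3.55 and 2.03 at D28, and most of these values lie within a few reads. It fell at D8 (log2 fold change -2.05, SE 0.53, adjusted p = 0.012, limma). With low values raised to the 3-read level that difference was -0.93 and did not pass. The D28 values overlapped with those of D7, and the fall of -1.45 there was lost in 14 of 19 alternative settings, among them without any 1 of the D7 libraries, D8 replicates 1 or 2, D10 replicates 2 or 3, and D28 replicates 1 or 3, with values from -1.57 (without D7 replicate 1) to -1.02 (without D28 replicate 1). Kcna3 did not exceed 2.66 and Kcna10 did not exceed 1.22 in any library, so both stayed under the 2.87 of the 3-read level while Kcna2 between them reached 9.50.

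**Figure D4:**
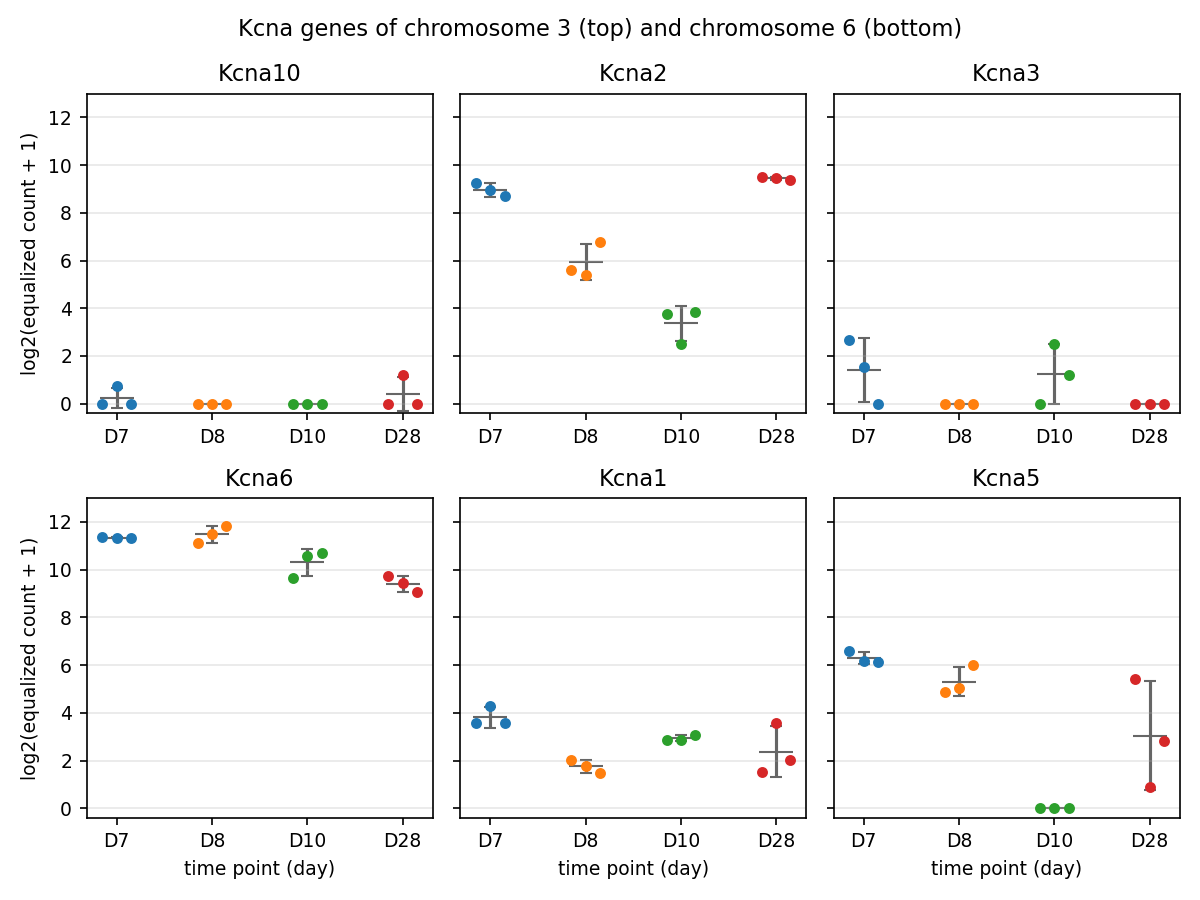
Log2(equalized count + 1) of the Kcna genes of the chromosome 3 cluster (top) and the chromosome 6 cluster (bottom), with 1 point per library and the mean ± SD of 3 libraries as bars, over time points drawn at equal spacing. Kcna2 and Kcna5 were lowest at D10, Kcna2 was high again at D28, and Kcna6 was lower at D10 and D28 than at D7 and D8.

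Other Kv genes were lowest at D10 and higher at D28. Kcns1, a modulatory subunit that assembles with other Kv subunits, lies at chr2:164163619-164171113 and measured 8.68, 7.75 and 8.89 at D7, 8.10, 7.61 and 8.58 at D8, 4.77, 3.58 and 4.73 at D10, and 7.30, 7.37 and 6.69 at D28. The D10 libraries were all below all others, and D28 lay between them and D7. Kcns1 fell at D10 against D7 (log2 fold change -4.08, SE 0.36, adjusted p = 3.8e-07, limma) and against D8 (log2 fold change -3.73, SE 0.36, adjusted p = 5.5e-06), and it rose again from D10 to D28 (log2 fold change 2.76, SE 0.36, adjusted p = 1.1e-05). At D28 it was still below D7 (log2 fold change -1.32, SE 0.36, adjusted p = 0.0094).

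Kcnc4, a Shaw subunit of fast delayed rectifiers, measured 4.86, 4.56 and 4.64 at D7, 0, 0 and 3.07 at D8, 0 in each of the 3 D10 libraries, and 4.29, 5.35 and 4.49 at D28. The D10 libraries were at least 3.51-fold lower than D7 and at least 3.57-fold lower than D28. Between D7 and D28 the difference was 0.02, interval -1.43 to 1.48 on the log2 scale, an interval too wide to set the levels apart or equal. Kcnd1, a Shal subunit, had means of 6.98 ± 0.42, 5.08 ± 0.52 and 6.67 ± 0.11 (SD, n = 3) at D7, D10 and D28. It fell at D10 (log2 fold change -1.89, SE 0.28, adjusted p = 7.3e-05, limma) and rose to D28 (log2 fold change 1.58, SE 0.28, adjusted p = 2.3e-04), and its fall from D8 to D10 (-1.12) was -0.87 without D10 replicate 1 and then missed the fold threshold.

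The D10 to D28 comparison also gave rises for Kcng2 (1.38) and Kcnc2 (3.87), which had fallen from D7 to D10 by values of -1.16 and -2.34 (adjusted p = 0.015 and 0.012, limma). Kcnc2 was at 0 in each D10 library and at most 3.45 at D7. Its fall with low values raised to the 3-read level was -0.19, short of the fold threshold, and its rise to D28 was 1.02 and did not pass (adjusted p = 0.055, limma). The fall to D10 also did not pass without D7 replicate 1 for Kcng2 (-0.93) and without D7 replicate 2 for Kcnc2 (-1.79).

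A further group of Kv genes fell and did not return. Kcnq5, a subunit of the M current that restrains neuronal firing, measured 8.25, 8.54 and 8.21 at D7, 8.49, 8.32 and 8.51 at D8, 7.80, 7.95 and 7.94 at D10, and 5.97, 5.62 and 5.63 at D28. Its values stayed close together until D10 and were clearly separate at D28. The fall from D7 to D28 (log2 fold change -2.60, SE 0.16, adjusted p = 1.2e-08, limma) passed, and so did that from D10 to D28, at -2.15 (adjusted p = 3.2e-08).

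Kcnh2, the hERG channel of cardiac repolarization, had means of 9.41 ± 0.20, 8.29 ± 0.30, 8.57 ± 0.23 and 7.06 ± 0.31 over the time points in order (SD, n = 3). The fall at D28 passed against D7 (log2 fold change -2.35, SE 0.19, adjusted p = 1.9e-07, limma) and against D10 (-1.51), while the fall at D8 (-1.13) was -0.96 without D8 replicate 3, short of the fold threshold. Kcnh1, the related ether-a-go-go channel, fell at D8 (log2 fold change -1.92, SE 0.25, adjusted p = 9.1e-05, limma) and D10 (log2 fold change -1.25, SE 0.25, adjusted p = 9.5e-04), and its fall at D28 (-1.11) was -0.92 without D7 replicate 3, again short of it.

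Kcnq1, the slow delayed rectifier of heart and epithelia, fell at D10 (-2.67, adjusted p = 0.0018, limma) and at D28 (-1.91, adjusted p = 0.018), from a D7 mean of 3.08. With low values raised to the 3-read level the difference was -0.32 in both comparisons, short of the fold threshold. The D28 fall also did not pass without D7 replicate 1 (-1.61), D28 replicate 1 (-1.62) or D28 replicate 2 (-1.77).

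Accessory subunits of Kv channels include single-pass Kcne proteins, cytoplasmic beta subunits related to aldo-keto reductases, and calcium-binding Kcnip partners of Shal channels. Kcne3, which opens the Kcnq1 channel of gut epithelia constitutively, measured 5.99, 7.26 and 5.03 at D7, 4.14, 3.55 and 2.50 at D8, 0 in each of the 3 D10 libraries, and 1.12, 1.84 and 0 at D28. Every D8 library was below every D7 library, and the D10 level was at least 9.31-fold lower than D7 by the floor of 3 reads. The fall at D8 (log2 fold change -2.70, SE 0.64, adjusted p = 0.007, limma) and that at D28 (log2 fold change -5.11, SE 0.64, adjusted p = 1.3e-05) passed, and with low values raised to the 3-read level the D28 difference was -3.22. The step from D8 to D10 rests on values near the floor, and it was -0.65 with low values raised.

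Kcne4, which inhibits several Kv channels, was the most abundant accessory gene and measured 9.91, 9.57 and 9.94 at D7, 9.27, 8.61 and 8.93 at D8, 10.07, 9.43 and 9.89 at D10, and 10.77, 10.90 and 10.64 at D28. The D28 libraries were above those of D7 and D10, with differences of 0.97, interval 0.59 to 1.34 against D7 and 0.97, interval 0.60 to 1.35 against D10, both just short of the fold threshold. Over all alternative settings, its difference between D28 and D7 lay between 0.85 and 1.03.

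Kcnip4 and Kcnab3 were lowest at D28. Kcnip4 measured 6.18, 5.89 and 6.16 at D7, 5.67, 6.01 and 6.34 at D8, 7.15, 6.63 and 6.69 at D10, and 4.56, 5.14 and 4.73 at D28, and its D28 libraries were below all others. It fell at D28 against D7 (log2 fold change -1.27, SE 0.27, adjusted p = 0.0016, limma) and against D10 (log2 fold change -2.01, SE 0.27, adjusted p = 1.3e-05). Kcnab3 went from 5.81 ± 0.41 at D10 to 3.86 ± 0.80 at D28 (SD, n = 3; log2 fold change -1.95, SE 0.38, adjusted p = 4.6e-04, limma). Its fall from D7 to D28 (-1.23) was lost without D7 replicate 1 (-1.10, adjusted p = 0.067, limma) and without D28 replicate 3 (-0.84).

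Of the other accessory genes, Kcnab1 fell at D8 (-1.20) and D10 (-1.43), Kcnab2 at D10 (-1.31) and D28 (-1.08), and Kcnip3 at D28 (-1.47) against D7, with adjusted p between 5.7e-04 and 0.0052 (limma). The fall of Kcnab2 at D28 was -0.85 without D7 replicate 3 and -0.94 without D28 replicate 1, short of the fold threshold.

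Inward rectifiers pass potassium more readily into the cell than out of it and hold the resting potential. Kcnj15, a renal and epithelial member and the most abundant one here, lies at chr16:95257558-95300260 and measured 11.03, 10.51 and 11.16 at D7, 9.29, 8.72 and 8.92 at D8, 8.76, 8.47 and 8.27 at D10, and 10.70, 10.52 and 10.31 at D28. All D8 and D10 libraries were below all D7 and D28 libraries. Kcnj15 fell at D8 (log2 fold change -1.92, SE 0.19, adjusted p = 6.7e-06, limma) and D10 (log2 fold change -2.40, SE 0.19, adjusted p = 9.9e-08) and rose from D10 to D28 (log2 fold change 2.01, SE 0.19, adjusted p = 2.9e-07). At D28 its difference from D7 was -0.39, interval -0.78 to 0.01.

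Kcnj2, the classical strong inward rectifier, whose loss in Andersen-Tawil syndrome includes skeletal features, measured 5.00, 4.93 and 5.29 at D7, 5.90, 5.46 and 5.89 at D8, 4.87, 4.49 and 4.79 at D10, and 3.55, 3.63 and 3.17 at D28. All D28 libraries were below all others. Kcnj2 fell from D7 to D28 (log2 fold change -1.62, SE 0.31, adjusted p = 6.9e-04, limma) and from D10 to D28 (log2 fold change -1.27, SE 0.31, adjusted p = 0.0028). With a pseudocount of 8 the fall from D10 to D28 was -0.89, short of the fold threshold. The fall from D8 to D10 (-1.03) was -0.96 without D8 replicate 1, -0.96 without D8 replicate 3 and -0.92 without D10 replicate 2, and passed in none of these. Its neighbour Kcnj16, 38.2 kb away, was at 0 in every library.

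Kcnj8 forms the pore of the ATP-sensitive channel of vascular muscle with the sulfonylurea receptor Abcc9. Kcnj8 measured 4.35, 3.45 and 4.34 at D7, 5.30, 4.51 and 4.14 at D8, 2.44, 0 and 2.79 at D10, and 3.26, 3.77 and 3.07 at D28. It fell at D10 against D7 (log2 fold change -2.30, SE 0.63, adjusted p = 0.0079, limma) and D8 (log2 fold change -2.91, SE 0.63, adjusted p = 0.0029). These differences were -1.17 and -1.77 with low values raised to the 3-read level. The fall from D7 did not pass under the study's own rule, an unadjusted test per gene on the D7 and D10 libraries alone. Its rise from D10 to D28 (1.63) was lost without D10 replicate 2 (0.76) and without any 1 of the D28 libraries (1.42 to 1.77). Kcnj11, the pore of the pancreatic ATP-sensitive channel, fell at D28 (-2.72, adjusted p = 0.0079, limma) from a D7 mean of 3.22, but the difference was -0.62 with low values raised, short of the fold threshold. Kcnj6, a G protein-gated member, rose from D10 to D28 (1.66, adjusted p = 0.022, limma) with all its values under 2.87. It did not pass without D10 replicates 2 or 3 or D28 replicates 2 or 3 (1.48 to 1.66). Apart from D8 replicate 1 (1.06), only its D28 libraries reached 1, so the filter itself favoured this rise.

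Tandem pore genes encode background leak channels. Kcnk5, an alkaline-activated and volume-sensitive channel, lies at chr14:20140057-20181809 and measured 10.51, 10.44 and 10.49 at D7, 10.28, 10.57 and 11.07 at D8, 10.37, 10.06 and 10.16 at D10, and 8.58, 8.06 and 8.20 at D28. D7, D8 and D10 lay close together, and all D28 libraries were below them. Kcnk5 fell from D7 to D28 (log2 fold change -2.20, SE 0.17, adjusted p = 1.3e-07, limma) and from D10 to D28 (log2 fold change -1.92, SE 0.17, adjusted p = 2.4e-07). Kcnk16, 79.6 kb from it, was at 0 in every library.

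Kcnk6, a channel of the TWIK group, was also lowest at D28. It measured 9.42, 9.10 and 9.11 at D7, 8.94, 8.94 and 8.71 at D8, 8.60, 8.83 and 9.03 at D10, and 7.33, 7.63 and 7.23 at D28, and all D28 libraries were below all others. Its fall was -1.81 from D7 to D28 and -1.43 from D10 to D28 (adjusted p = 2.6e-07 and 1.5e-06, limma). At D8 and D10 its differences from D7 were -0.34, interval -0.67 to -0.02 and -0.39, interval -0.72 to -0.06.

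Kcnk1, the founding TWIK channel, fell early instead. Kcnk1 (chr8:125995170-126030685) measured 9.93, 9.91 and 10.03 at D7, 8.28, 8.59 and 8.33 at D8, 7.44, 7.90 and 7.80 at D10, and 8.70, 8.32 and 8.34 at D28. The D7 libraries, which spanned only 9.91 to 10.03, were above all later ones. Kcnk1 fell at D8 (log2 fold change -1.56, SE 0.15, adjusted p = 7.4e-06, limma), D10 (log2 fold change -2.24, SE 0.15, adjusted p = 2.9e-08) and D28 (log2 fold change -1.51, SE 0.15, adjusted p = 1.6e-06). Of the other tandem pore genes, Kcnk12 fell from D10 to D28 (-2.01, adjusted p = 0.021, limma), although the values of both time points overlapped and the difference was -0.46 with low values raised to the 3-read level, short of the fold threshold. This fall also did not pass without D10 replicates 2 or 3 or D28 replicates 1 or 3 (-1.91 to -1.51). Kcnk2 rose as described above.

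**Figure D5:**
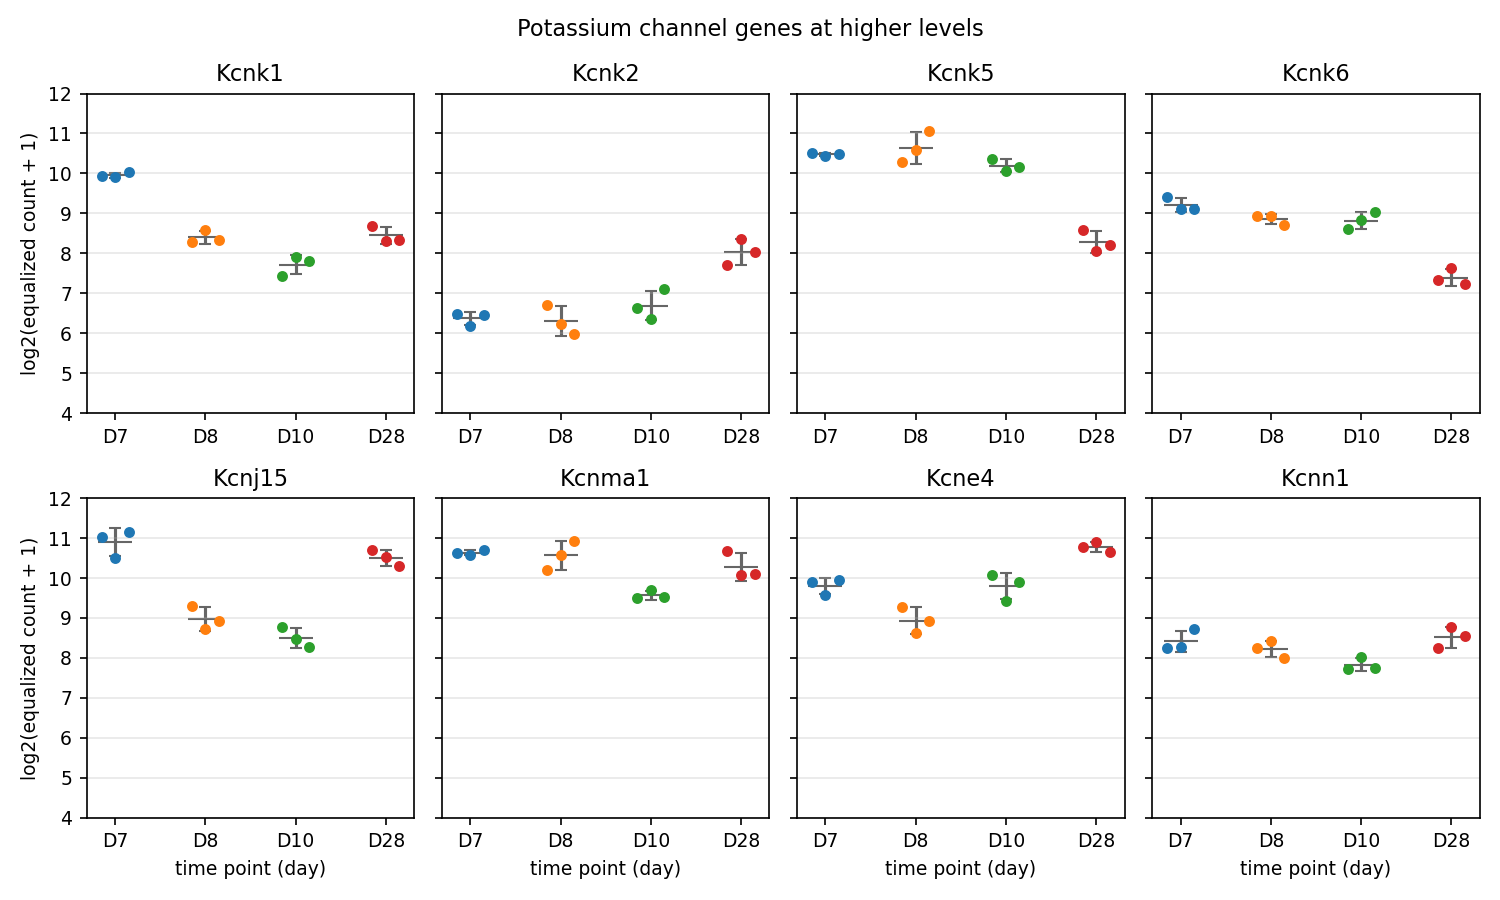
Log2(equalized count + 1) of 8 potassium channel genes at higher levels, with 1 point per library and the mean ± SD of 3 libraries as bars, over time points drawn at equal spacing on an axis that begins at 4. Kcnk5 and Kcnk6 were lowest at D28, Kcnk1 was lower from D8 on, Kcnj15 was low at D8 and D10, and Kcnk2 was higher at D28.

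Among the channels opened by calcium, Kcnma1 encodes the pore of the large-conductance BK channel, which has been recorded in chondrocytes. Kcnma1 (chr14:23289431-24014491) measured 10.62, 10.57 and 10.70 at D7, 10.21, 10.57 and 10.92 at D8, 9.49, 9.70 and 9.52 at D10, and 10.69, 10.07 and 10.10 at D28. The D10 libraries were below all others. Kcnma1 fell from D7 to D10 (log2 fold change -1.06, SE 0.17, adjusted p = 1.6e-04, limma). Its step from D8 to D10 was -0.999, interval -1.37 to -0.63, at the edge of the fold threshold, and its difference between D28 and D7 was -0.35, interval -0.72 to 0.02. The beta subunits that tune this channel were hardly detected, since Kcnmb4, with the highest mean of the 4, did not exceed 2.03, Kcnmb1 did not exceed 2.44, and Kcnmb2 was at 0 throughout.

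Small-conductance channels differed among themselves. Kcnn1 stayed between 7.72 and 8.76 and passed in no comparison, with differences from D7 of -0.58, interval -0.96 to -0.21 at D10 and 0.11, interval -0.27 to 0.48 at D28. Kcnn3 measured 4.86, 5.38 and 5.29 at D7, 3.45, 3.55 and 4.29 at D8, 1.81, 3.58 and 2.79 at D10, and 1.81, 1.22 and 1.06 at D28, and its D10 and D28 libraries were all below those of D7. Kcnn3 fell at D10 (log2 fold change -2.45, SE 0.49, adjusted p = 8.8e-04, limma) and D28 (log2 fold change -3.81, SE 0.49, adjusted p = 1.8e-05). The D28 difference was -2.30 with low values raised to the 3-read level. Its step from D10 to D28 (-1.36), in which the values overlapped, was lost without D10 replicate 2 (-0.94), D10 replicate 3 (-1.33), D28 replicate 2 (-1.29) or D28 replicate 3 (-1.21). Kcnn2 did not pass the filter and reached 2.03 at most.

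Of the 5 noncoding genes, Kcnq1ot1, the imprinted antisense transcript of the Kcnq1 locus that silences its neighbours on the paternal chromosome, was the 1 that passed the filter. Kcnq1ot1 (chr7:143203458-143296549) measured 7.00, 5.77 and 6.30 at D7, 5.30, 6.39 and 6.41 at D8, 6.39, 6.68 and 6.39 at D10, and 7.14, 6.90 and 7.63 at D28. It changed in no comparison, and its difference between D28 and D7 was 0.86, interval 0.14 to 1.59. Its host gene Kcnq1 fell at D10 and D28, as given above, and the annotated exons of both genes share 121 bases.

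Genes of potassium handling outside this family were counted from lists. Against D7, 3.23% and 3.81% of all genes tested rose and fell at D8, 8.5% and 10.4% at D10, and 8.63% and 8.66% at D28. Of 11 channel partners without a Kcn number, such as sulfonylurea receptors and Dpp partners of Shal channels, 8 were tested, none changed at D8 or D10 against D7, and 2 rose at D28. These were Abcc9, from 4.97 ± 0.53 to 6.98 ± 0.98 (SD, n = 3; log2 fold change 2.01, adjusted p = 0.0097, limma), and Kcnrg (1.88, adjusted p = 0.022). Of 24 potassium pump and cotransporter genes, 23 were tested, and 3 rose and 6 fell at D10, while 2 rose and 4 fell at D28 against D7. Atp1b2, a sodium pump beta subunit, went from 5.95 ± 0.20 at D7 to 3.07 ± 0.25 at D10 and 7.28 ± 0.56 at D28. None of 7 other potassium-permeable channel genes changed against D7.

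Voltage-gated calcium and sodium channel genes were counted in the same way. Of all genes tested, 8.5% rose and 10.4% fell at D10, and 8.63% rose and 8.66% fell at D28 against D7. Of 18 calcium channel genes, 17 were tested, with 2 rises and 6 falls at D10 and 5 rises and 3 falls at D28 against D7. Of 14 sodium channel genes, 13 were tested, with 0 rises and 5 falls at D10 and 0 rises and 3 falls at D28. The sodium channel gene Scn7a was at 6.73 ± 0.71, 1.98 ± 1.72 and 7.49 ± 0.48 at D7, D10 and D28, lowest at D10 as Kcna2 was.

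Markers of other cell types moved over the same time points. Against D7, 3.23% and 3.81% of all genes tested rose and fell at D8, 8.5% and 10.4% at D10, and 8.63% and 8.66% at D28. Fewer cells of a type and less RNA per cell cannot be told apart in such bulk samples. Of 9 chondrocyte markers 1 fell at D8 against D7, 6 fell at D10, and 1 rose and 2 fell at D28, and their summed level, as log2, was 21.33 to 21.34 at D7, 21.25 to 21.46 at D8, 20.25 to 20.32 at D10 and 21.22 to 21.27 at D28. Of 7 skeletal muscle markers 3 fell at D8, 6 at D10 and 7 at D28, with a summed level of 11.59 to 11.88 at D7, 9.92 to 10.67 at D8, 8.35 to 8.91 at D10 and 6.79 to 7.73 at D28. The adipocyte list had 2 of 6 lower at D8, 4 lower at D10 and 6 higher at D28, with a summed level of 12.58 to 12.70 at D7, 11.82 to 12.07 at D8, 11.27 to 11.41 at D10 and 15.53 to 15.96 at D28. The summed level of the skeletal muscle list was lower at each later time point, while that of the adipocyte list was lowest at D10 and highest at D28. Of 6 Schwann cell markers 3 fell at D10, and 3 fell and 1 rose at D28, although the summed level was higher at D28, with 12.08 to 12.25 at D7, 12.12 to 12.35 at D8, 11.01 to 11.79 at D10 and 12.87 to 13.32 at D28. Of 5 hypertrophic chondrocyte markers 2 fell at D8, 4 at D10 and 2 at D28, and their summed level was 17.72 to 18.16 at D7, 17.42 to 18.11 at D8, 17.69 to 18.39 at D10 and 16.18 to 16.91 at D28. Of 8 osteoblast markers 3 rose and 2 fell at D8, 4 rose and 3 fell at D10, and 4 rose and 1 fell at D28, with a summed level of 18.36 to 18.97 at D7, 17.23 to 18.36 at D8, 16.73 to 17.59 at D10 and 17.34 to 17.46 at D28. In these 3 lists the counts and the summed level, which the most abundant markers dominate, do not always point the same way. Endothelial markers rose in 2 of 5 at D8 and 1 at D10 and fell in 1 at D28, with a summed level of 4.31 to 5.46 at D7, 5.64 to 7.71 at D8, 4.04 to 6.48 at D10 and 4.09 to 5.18 at D28. Smooth muscle markers fell in 2 of 6 at D10 and rose in 2 at D28, and macrophage markers rose in 1 and fell in 1 of 6 at D10, with no change past the thresholds in their other comparisons with D7. The summed level of the macrophage list was 10.05 to 10.27 at D7 and 9.67 to 10.06 at D8. It was 9.65 to 10.46 at D10 and 9.71 to 12.11 at D28. Of 7 neuron markers 2, Tubb3 and Stmn2, rose at D8 and at D10 against D7, and 2 rose and 1 fell at D28. Their summed level was 4.66 to 6.30 at D7, 6.84 to 7.07 at D8, 6.95 to 7.43 at D10 and 5.04 to 5.65 at D28, with Snap25 and Nefl at 0 in all D7 and D8 libraries and Syt1 and Elavl4 at 0 in all D10 libraries. The part of these cell types in the changes of potassium channel genes was not tested.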

How the data were processed

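RNA was measured in 12 libraries, with 3 replicates per time point (D7, D8, D10, D28). According to the labels and the supplementary methods, the authors trimmed reads with Trimmomatic 0.36, aligned them with HISAT2, used Cufflinks for annotation, counted reads per gene with HTSeq, and equalized the counts in Matlab. The deposited values are log2 of the equalized count with a pseudocount of 1, so the totals per library and their depth are not kept. The labels name the genome GRCm38 and the supplementary methods name hg38. Positions are from GENCODE M21 and promoters from RefSeq (GRCm38.p6).

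Members were all symbols that begin with Kcn followed by letters and a number. Members, named genes and gene lists were chosen with earlier results of these data known. All 17674 genes with values of 1 or more in 3 libraries were fitted together with limma 3.58.1 (R 4.3.3; 1 coefficient per time point, variance trend, 8 residual and 7.23 prior degrees of freedom), with two-sided moderated p-values and Benjamini-Hochberg adjustment over all of them. Scripts also used Python 3.11.15, pandas 2.3.3 and matplotlib 3.10.9. Named genes were Kcna2, Kcna5 and their cluster neighbours, the 25 changed genes with a mean of 4 or more at a time point and the largest change after values under the 3-read level were raised to it, the 5 most abundant unchanged genes, the most abundant gene of each class and those beside the filter threshold. Other genes are named where a count holds them, and these were chosen after their values were seen. The read level of a low value is its rank among the distinct low values of its library, and the floor for a group at 0 was 3 reads per library (2.87). Alternatives were 8 other settings and each library left out in turn. The values of 3 named genes are not reported here. No sequencing batch or date is given, so batches could not be examined.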

Additional observations from a re-analysis of the deposited data

How the results depend on the processing

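Of 75 calls of named genes, 56 held in every one of up to 20 alternative settings, 19 were lost in at least 1, and none changed direction. With a mean log2 value of at least 3 as the filter, in which fewer genes are tested, the count was 6 for lower at D8 against D7 (10 in the fit reported), 4 for higher at D28 against D7 (7) and 9 for higher at D28 against D10 (14). With low values raised to the 3-read level, 5 genes (8) were lower at D10 against D8. The single rise from D8 to D10, Kcnt2, became 2 rises with no filter, 0 with a pseudocount of 8, 2 under the study's own rule and 3 with no fold threshold. The cause of these shifts was not tested further.

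Leaving out each library in turn gave, higher and lower, 2 to 2 and 9 to 11 genes for D8 against D7, 4 to 5 and 18 to 21 for D10 against D7, 6 to 8 and 18 to 22 for D28 against D7, 0 to 3 and 6 to 9 for D10 against D8, and 11 to 16 and 10 to 13 for D28 against D10. A replicate block gave 2 and 10, 4 and 19, 8 and 22, 1 and 8, and 16 and 12 in the same order. Same-numbered libraries had correlations of their deviations between -0.058 and 0.066 in 18 pairs. These values cannot show whether same-numbered libraries share a cell preparation, and the labels do not say.

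Depth limits what can be said of genes near 3 reads. With low values raised to that level, calls of Kcnt1 at D8 and D10, Kcna1 at D8 and D28, Kcne3 from D8 to D10, and Kcnn3 and Kcnj8 from D10 to D28 were among those lost. The changes against D7 of Kcnq1 at D10 and D28, Kcnc1 and Kcnc2 at D10, and Kcnj11 and Kcnj3 at D28 also fell short of the fold threshold. So did those of Kcnq1 from D8 to D10 and of Kcnk12, Kcnj3 and Kcnj6 from D10 to D28.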
